A study of Drosophila melanogaster with 2 samples.

Results

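The genes cabut (cbt) and u-shaped (ush) of Drosophila melanogaster overlap on chromosome arm 2L, and the locus was selected by measured values, because it holds the strongest maf-S-eGFP peak of the series. It was taken as both gene spans with 10 kb either side (chr2L:466220-550560, dm6), a window of 84.3 kb that contains 15 of the 3205 peaks past the authors' reproducibility threshold. The 2 genes are 2 of 13945 annotated protein-coding genes on the chromosome arms. All signals below come from the lists that chose the locus, so they are given as a description and without tests.

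The study mapped maf-S, the small Maf protein of the fly, by chromatin immunoprecipitation and sequencing (ChIP-seq). It has 1 group of 2 biological replicates, numbered 2 and 3, from separate biosamples, and no second condition. Each was made from whole embryos of mixed sex aged 0 to 24 h, from a transgenic line that stably expresses maf-S with GFP at its C-terminus, precipitated with an anti-GFP antibody. The material is a mixture of all embryonic tissues and stages, so a peak cannot be assigned to a cell type, and the tagged protein comes from a transgene, whose promoter is not given in the sources used here. A control experiment that the labels name was not analysed here. Read depth is not given in the sources used here.

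Small Maf proteins are basic leucine zipper factors without an activation domain of their own, and they bind DNA as dimers, in flies with Cap'n'collar. cbt encodes a zinc finger transcription factor related to mammalian TIEG (KLF10 and KLF11) proteins. It acts in dorsal closure of the embryo with the JNK pathway and responds to sugar through Mondo-Mlx. ush encodes a zinc finger cofactor of the Friend of GATA (FOG) family, which binds the GATA factors Pannier and Serpent and is known for roles in germ band retraction, the heart, blood cells and thoracic bristles.

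The geometry of the locus matters for reading the peaks. ush (chr2L:476220-540560) is transcribed on the plus strand and spans 64.3 kb, with 5 transcripts from 4 start sites. ush-RD and ush-RE begin at 476220, ush-RB at 490835, ush-RA at 523466 and ush-RC at 523736. cbt (chr2L:476446-479688) is transcribed on the minus strand from a single start site at 479688, and lies wholly inside the first intron of ush-RD and ush-RE, which is 49060 bp long in ush-RD and 13185 bp in ush-RE. The sequence just upstream of cbt is thus also intronic sequence of ush.

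The 3 summits nearest upstream of cbt, which include the strongest peak and the cbt promoter peak, are shown here on the plus strand of dm6, read from the RefSeq copy of Release 6. For the first 2, which span 300 bp, capitals mark the words of 9 bases that both share within 100 bp of their summits; for the third, which spans 201 bp, they mark an E-box, CACGTG.
cbt promoter peak (chr2L:479923-480222): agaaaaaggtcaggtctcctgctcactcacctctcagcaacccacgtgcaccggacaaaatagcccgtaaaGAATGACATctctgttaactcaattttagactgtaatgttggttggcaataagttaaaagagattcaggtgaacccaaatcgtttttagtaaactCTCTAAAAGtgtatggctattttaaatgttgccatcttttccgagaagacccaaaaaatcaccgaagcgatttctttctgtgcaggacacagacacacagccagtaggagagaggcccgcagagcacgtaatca
strongest peak (chr2L:480941-481240): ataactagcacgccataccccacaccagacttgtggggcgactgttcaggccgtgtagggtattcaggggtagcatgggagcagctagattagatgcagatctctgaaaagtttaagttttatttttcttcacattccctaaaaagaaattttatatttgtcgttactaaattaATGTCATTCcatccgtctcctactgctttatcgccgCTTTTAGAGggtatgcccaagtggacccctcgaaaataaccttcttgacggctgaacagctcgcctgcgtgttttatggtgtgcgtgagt
peak beyond it (chr2L:481801-482001): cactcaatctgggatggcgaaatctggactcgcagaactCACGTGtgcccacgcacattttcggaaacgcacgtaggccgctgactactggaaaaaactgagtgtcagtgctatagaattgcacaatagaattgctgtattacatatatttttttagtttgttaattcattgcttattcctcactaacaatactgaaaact

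A further 4 windows of 201 bp from ush introns are shown for the sequences they hold, with capitals on every match to the panel of motifs described below. The peak at 485866 is the strongest of the ush introns beyond that trio, that at 510649 differs most between the replicates, and those at 516243 and 520858 lie upstream of ush-RA.
ush intron peak at 485866 (chr2L:485766-485966): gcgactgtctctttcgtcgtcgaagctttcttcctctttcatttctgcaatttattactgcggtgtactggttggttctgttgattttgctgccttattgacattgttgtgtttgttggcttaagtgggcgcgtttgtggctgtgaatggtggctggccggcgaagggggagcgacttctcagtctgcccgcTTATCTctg
ush intron peak at 510649 (chr2L:510549-510749): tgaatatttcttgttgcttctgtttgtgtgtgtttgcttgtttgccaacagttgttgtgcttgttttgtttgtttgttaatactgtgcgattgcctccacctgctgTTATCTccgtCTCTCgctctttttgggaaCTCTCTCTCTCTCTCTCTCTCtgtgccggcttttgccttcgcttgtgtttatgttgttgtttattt
ush intron peak at 516243 (chr2L:516143-516343): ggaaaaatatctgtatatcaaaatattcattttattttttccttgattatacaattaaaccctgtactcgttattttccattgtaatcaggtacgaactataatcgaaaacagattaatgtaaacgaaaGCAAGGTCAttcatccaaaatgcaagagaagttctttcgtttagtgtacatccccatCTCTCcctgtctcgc
ush intron peak at 520858 (chr2L:520758-520958): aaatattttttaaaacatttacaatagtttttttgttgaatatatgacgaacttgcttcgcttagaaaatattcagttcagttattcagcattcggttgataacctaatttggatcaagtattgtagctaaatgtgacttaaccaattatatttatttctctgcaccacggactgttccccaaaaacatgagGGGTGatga

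The strongest peak lay upstream of cbt. It covered chr2L:480902-481287 with its summit at 481091, 1403 bp upstream of the cbt start site, in the first intron of ush-RD and ush-RE. Its signal, the value that the deposited lists give each peak and on which they are ranked here, was 695 in replicate 2 and 1011 in replicate 3, and 1703 in the pooled list. It ranked 2 of 30000 in replicate 2, behind a peak on 3L with 716, and was first in replicate 3, where the next peak had 915. The lead in the pooled list was small, at 1.05 times the second peak (1624), and the order of the leading peaks differed between the replicates. The summits of replicates 2 and 3 lay 5 bp apart. In the separate lists made on the dm3 assembly, the highest pooled signal was also on 2L, with a value of 1702.

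A second strong peak stood at the cbt promoter. It covered chr2L:479936-480182 with its summit at 480073, 385 bp upstream of the cbt start site and 1018 bp from the strongest summit. Its signal was 169 in replicate 2 (rank 107), 289 in replicate 3 (rank 64) and 455 in the pooled list (rank 86). The strongest peak had 4.11 times this signal in replicate 2 and 3.50 times in replicate 3, so within each replicate the order of both peaks was the same.

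Beyond the strongest peak, a weaker one (chr2L:481706-482095, summit 481901) lay 2213 bp upstream of cbt. Its signal was 45.7 in replicate 2, 59.2 in replicate 3 and 109 in the pooled list, rank 1627. The 3 summits upstream of cbt fell within 1828 bp and made up 58.0% of the summed pooled signal of the window, the strongest alone 43.6%. No thresholded summit lay inside cbt itself. The pooled list had rows there at 478847 (signal 55.4, rank 4836) and 479048 (44.4, rank 6829), in the first intron of cbt-RA and cbt-RC, which is exonic in cbt-RB. Neither passed the threshold.

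**Figure D1:**
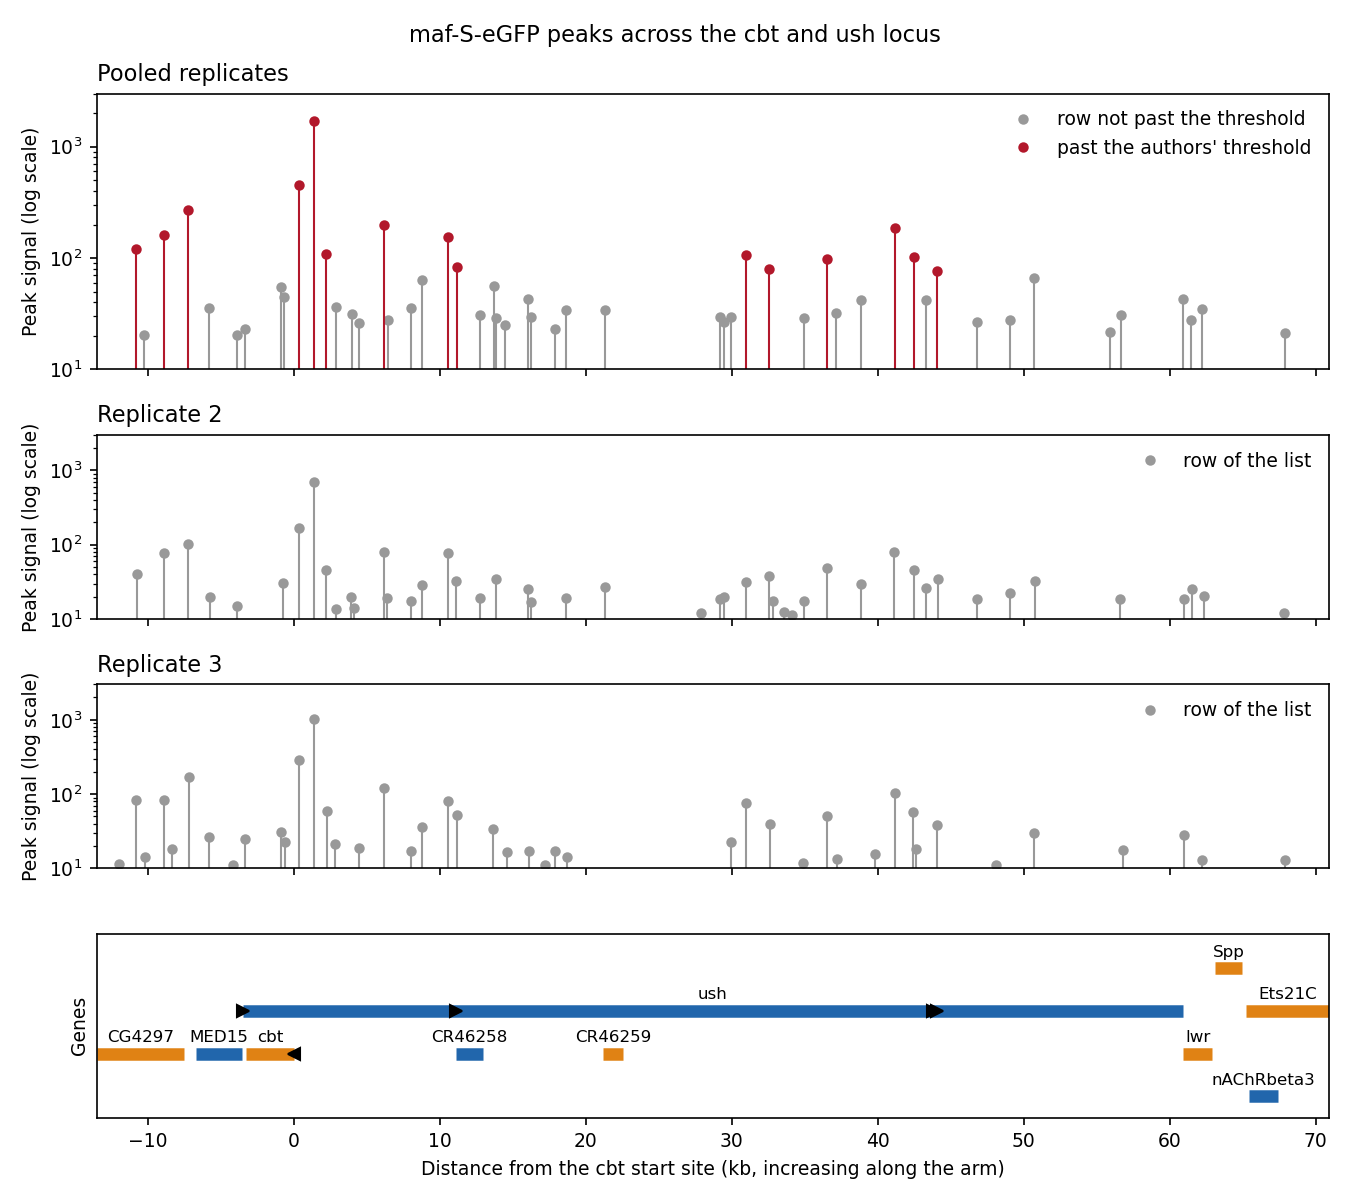
Peak signal (log scale) of every row in the window against the distance of its summit from the cbt start site in kb, for the pooled list and for replicates 2 and 3, above the genes (blue, plus strand; orange, minus strand; black arrowheads, start sites of cbt and ush). The highest point in each list is the peak 1.40 kb upstream of cbt, and the 15 red points of the pooled list, past the threshold, leave the 3' part of ush and the genes beyond it without a thresholded peak.

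Of the 4 ush start sites, 3 had a thresholded summit within 500 bp, and these were weak. At ush-RB the peak chr2L:490653-491042 had its summit at 490848, 13 bp downstream of the start site, which the non-coding gene lncRNA:CR46258 shares. Its signal was 32.1 in replicate 2 (rank 3363), 52.3 in replicate 3 (rank 2200) and 83.9 in the pooled list (rank 2519). The peak chr2L:523568-523957 served both ush-RA and ush-RC, with its summit at 523763, 27 bp downstream of the ush-RC start and 297 bp downstream of that of ush-RA. Its signal was 34.5 in replicate 2 (rank 2967), 38.0 in replicate 3 (rank 3724) and 76.7 in the pooled list (rank 2914).

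The most distal ush start site, that of ush-RD and ush-RE at 476220, had none. The nearest thresholded summit was 3747 bp away, at CG4297, and the best pooled row within 500 bp had a signal of 23.3 and rank 22759. In replicate 3 that row ranked 7146 with 25.1, and the best row of replicate 2 near the site ranked 17076 with 14.9. The lists hold background rows by design, and no site was detectable there at the authors' threshold.

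A stronger peak stood a short distance upstream of ush-RB. It covered chr2L:490049-490438, with its summit at 490244, 591 bp upstream of that start site and inside the non-coding part of the second exon of ush-RE. Its signal was 76.7 in replicate 2 (rank 650), 81.1 in replicate 3 (rank 1043) and 154 in the pooled list (rank 865). In both replicates this upstream peak was higher than the peak at the ush-RB start site itself.

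Leaving out summits within 500 bp of a start site, such as the cbt promoter peak, the introns of ush held 8 of the 15 peaks, the strongest included. Between the cbt promoter peak and ush-RB, the peak at 485866 (chr2L:485671-486060) had a signal of 79.5 in replicate 2 (rank 611), 120 in replicate 3 (rank 491) and 197 in the pooled list (rank 540). The nearest start site was that of ush-RB, 4969 bp downstream. A stretch of 19801 bp then held no thresholded summit, from the ush-RB start peak to the peak at 510649.

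The remaining 5 intronic peaks lay between the ush-RB and ush-RA start sites. The highest was at 520858 (chr2L:520780-520878), 2608 bp upstream of ush-RA, with 78.5 in replicate 2, 105 in replicate 3 and 188 in the pooled list; its ranks in replicates 2 and 3, 631 and 635, were nearly equal. The peak at 522177 (chr2L:521982-522371), 1289 bp upstream of ush-RA, had 46.0 in replicate 2, 56.8 in replicate 3 and 103 in the pooled list. The other 3, at 510649, 512265 and 516243, had pooled signals of 108, 79.6 and 98.9. The peak at 516243 had 48.1 in replicate 2 and 51.2 in replicate 3. No thresholded peak lay in ush downstream of the first exon of ush-RA and ush-RC, a part of 16797 bp measured from the last summit to the end of the gene.

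The neighbouring genes had peaks on the left side of the window only. CG4297, a gene on the minus strand on the left of the window, had 3 thresholded peaks. The highest (chr2L:472392-472547, summit 472473) lay 273 bp upstream of CG4297 and 540 bp upstream of MED15, a Mediator subunit gene transcribed the other way, with 104 in replicate 2 (rank 347), 168 in replicate 3 (rank 223) and 271 in the pooled list (rank 262). The other 2, at 468904 and 470784, were in the first intron of CG4297, with pooled signals of 122 and 160. The peak at 470784 had 76.1 in replicate 2 and 83.6 in replicate 3. On the right of ush, none of the genes lwr (the SUMO-conjugating enzyme), Spp (signal peptide peptidase), Ets21C (an ETS transcription factor) and nAChRbeta3 (an acetylcholine receptor subunit) had a thresholded summit in the window, nor had the non-coding gene lncRNA:CR46259 inside ush.

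By position, 4 of the 15 summits were within 500 bp of a start site (signals from 76.7 to 455). Of the others, 1 was in an exon (154) and 10 were in introns (79.6 to 1703). The ranges of start-site and intronic peaks overlapped. Without the strongest peak, the highest intronic signal was that of the peak at 485866, 197, below the cbt promoter peak.

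The thresholded peaks of the window were listed in both replicates. All 15 peaks had a row in both replicates with its summit within 150 bp, against 3159 of 3205 (98.6%) thresholded peaks of the whole series. Such a match was largely set in advance, since these peaks passed a reproducibility threshold and each replicate list holds 30000 rows. Of the 37 pooled rows of the window that did not pass, 14 had a match in both. Summits of the replicates lay from 3 to 77 bp apart, with a median of 27 bp. Of the 15 peaks, 13 stood among the 3205 highest rows of replicate 2 and 13 among those of replicate 3. The peaks that missed were different ones in each replicate. In replicate 2 they were 490848 and 510649, with ranks 3363 and 3579, and in replicate 3 they were 512265 and 523763, with ranks 3531 and 3724.

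**Figure D2:**
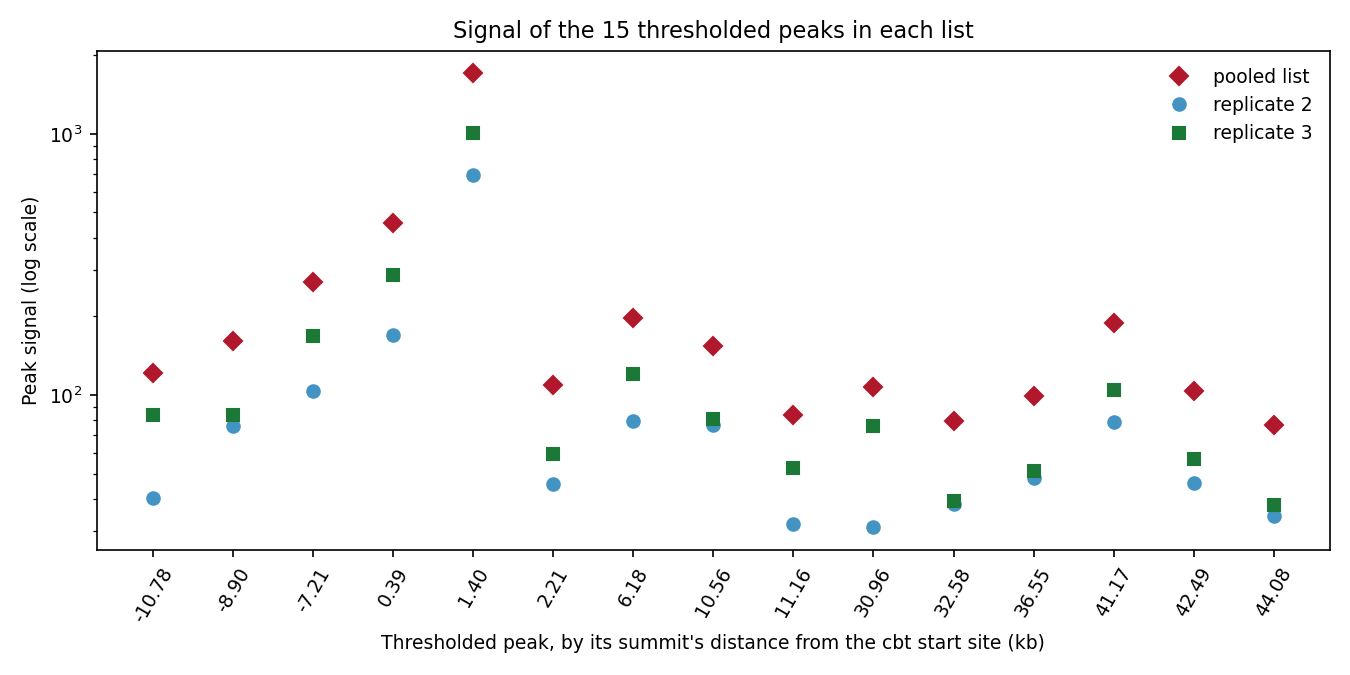
Signal (log scale) of each of the 15 thresholded peaks in the pooled list (diamonds), replicate 2 (circles) and replicate 3 (squares), in order along the arm, labelled by the distance of the summit from the cbt start site in kb. The peaks at 1.40 and 0.39 kb are the highest in every list; the replicate values nearly coincide at 32.58 kb and lie farthest apart at 30.96 kb.

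The replicates differed in the size of single peaks. How the authors scaled the signal of each list is not given in the sources used here, so ratios between replicates were read against the median of the series. Over all matched thresholded peaks the signal of replicate 3 exceeded that of replicate 2 by a median of 0.42 on the log2 scale, with the middle 95% from -0.62 to 1.42. The median of the 15 peaks was also 0.42. The highest ratio was at 510649, in the long ush intron, with 31.1 in replicate 2 (rank 3579) and 75.7 in replicate 3 (rank 1170). Its log2 ratio of 1.28 exceeds that of 95.8% of the matched thresholded peaks. Next came 468904, in CG4297, with 40.3 in replicate 2 and 83.7 in replicate 3 (log2 ratio 1.05). The lowest ratio was at 512265, 38.2 in replicate 2 and 39.3 in replicate 3 (log2 ratio 0.04, below the series median). Neighbouring peaks of the same intron thus lay near the ends of the window's range. Nearest to the series median was 520858, with a log2 ratio of 0.42. All 15 ratios were inside the middle 95% of the series. With 1 library per replicate, no error of a single ratio can be given.

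The log2 signals of both replicates had a Pearson correlation of 0.95 over the 15 peaks and of 0.88 over the other 14 without the strongest, against 0.79 over the 3159 matched peaks of the series. The strongest peak chose the locus, and the other 14 still include the cbt promoter peak, with a signal well above the rest. A correlation depends on the range of signal, so nothing is read from the difference. The values describe sites that share the same libraries and depth, and are no test.

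**Figure D3:**
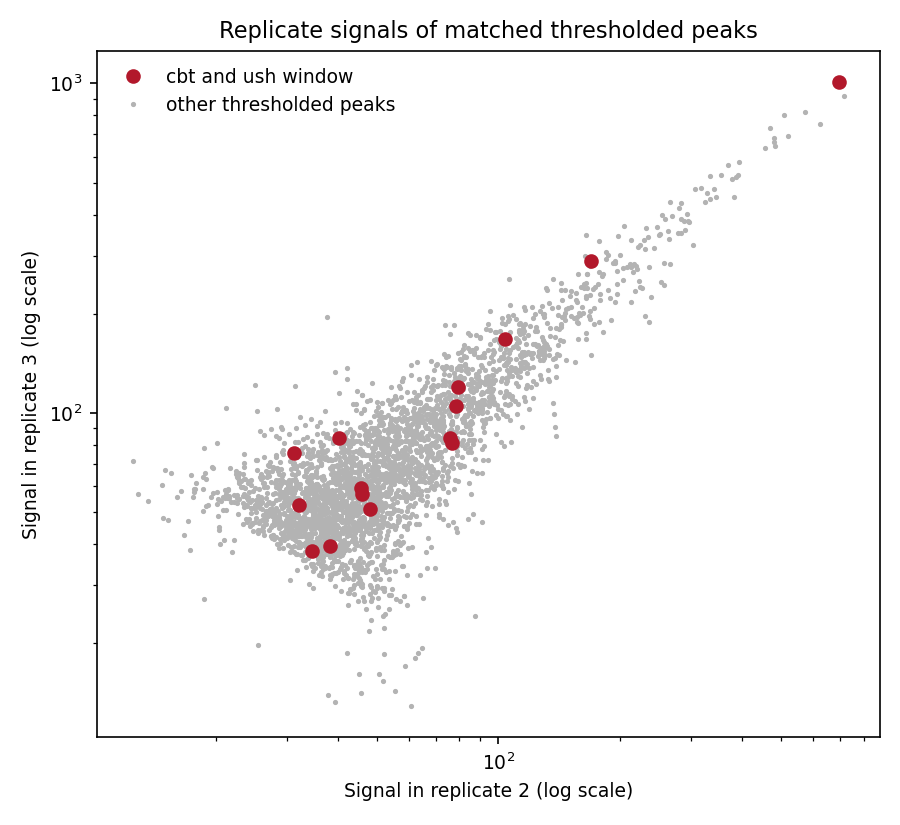
Signal in replicate 3 against signal in replicate 2, both on log scales, for the 15 window peaks (red) and the other matched thresholded peaks (grey). The strongest peak, with 695 in replicate 2 and 1011 in replicate 3, is at the upper right end of the cloud. The cbt promoter peak lies between it and the other window peaks, which reach at most 104 in replicate 2 and 168 in replicate 3.

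The window also held rows below the threshold. The pooled list had 52 rows there, of which 15 (28.8%) were past the threshold, against 10.7% of all 30000 rows. Since the window was chosen for its peaks, nothing is read from that difference. Replicate 2 had 47 rows in the window and replicate 3 had 44. Of the 37 pooled rows that did not pass, 4 ranked within the first 5000, and 14 had a row within 150 bp in both replicates. The weakest peak inside the threshold was that of ush-RA and ush-RC, with 76.7, where the lowest thresholded signal of the series was 72.3. The strongest row outside it was at 530413, in the second intron of ush-RA, with 65.6 (rank 3700), followed by 488457, between the strongest peak and ush-RB, with 64.1 (rank 3857). The row at 530413 ranked 3241 in replicate 2 and 5339 in replicate 3, and it is the only one of the 4 in the 3' part of ush.

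The locus was also dense in peaks. The window had 17.8 thresholded peaks per 100 kb, against 2.39 over the 6 arms. The locus was chosen for a peak of the same list, so this density and the counts below are a description only. Counting the summits within each gene span and 10 kb either side, ush had 15, cbt had 7, and the median of 13945 protein-coding genes was 1. Among these, 6248 genes (44.8%) had 0 and 9 had 10 or more, counting ush. No other gene reached 15; CG1677 had 14, kirre 13 and sbb 12. The median of the 307 genes of 50 kb or longer was also 1. Within the gene span alone ush had 12 peaks, CG1677 had 13 and kirre had 12, so the leading place of ush depends on the flanks. The 7 summits of cbt are all among the 15 of ush and include the CG4297 peaks. Within its own span cbt had 0 peaks, and with flanks of 5 kb it had 4.

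**Figure D4:**
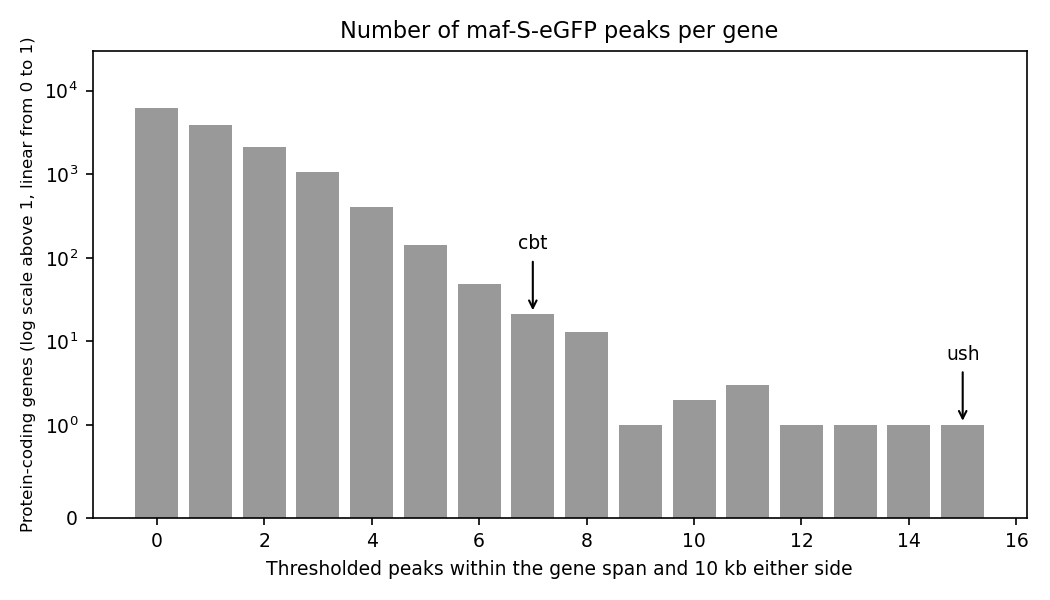
Number of protein-coding genes (log scale above 1, linear from 0 to 1) against the number of thresholded peaks within the gene span and 10 kb either side. cbt falls in the bar at 7 and ush is the only gene in the bar at 15.

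The sequence panel left the strongest peak without a match. The panel held 15 sequences, and a match on either strand counted if it fell in the 201 bp centred on a summit. Some overlap: every match to the strict Cnc-Maf form, given by name only, is also a match to the relaxed form TGACNNNGC, every TGACGTCA holds TGACGT, and every TATCGATA holds ATCGAT. In the sequences printed above, a match on the minus strand appears as its reverse complement, so that AGATAA reads TTATCT and GAGAG reads CTCTC. The window around 481091 held none of the 15, as did 5 of the 15 window peaks and 36.8% of all thresholded peaks. The others without a match were those at 470784, 490244, 512265 and 523763.

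The relaxed Cnc-Maf sequence was found at 1 of the 15 peaks, that at 516243, starting 29 bp after the summit on the minus strand, where it reads on the plus strand as the capitals GCAAGGTCA above. It was present at 5.74% of all thresholded summits. The strict form was at none, and at 0.655% of the series. The AP-1 sequence TGANTCA (4.84% of the series), the CRE sequence TGACGTCA (0.343%) with its shorter form TGACGT (3.78%), the C/EBP sequence TTGCGCAA (0.187%), the DRE TATCGATA (5.74%) with its core ATCGAT (14.3%), motif 1 GGTCACAC (3.59%), the Zelda sequence CAGGTAG (0.842%) and the GC box GGGCGG (3.99%) were at none of the 15 either. Counts this small do not show that the window differs from the series.

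Sequences that did occur were mostly short. GAGAG, the core of sites bound by GAGA factor, was at 6 of the 15 peaks, against 23.1% of all thresholded summits. It came in runs at 490848, the ush-RB start, with 12 overlapping or neighbouring matches, none of them lying wholly within 50 bp of the summit. At 510649 there were 10, while the cbt promoter peak had a single match 14 bp after its summit. AGATAA, a sequence bound by GATA factors, was at 3 peaks in ush introns (485866, 510649 and 522177), against 12.9% of the series. GGGTG, a GT box, was at 2 (17.3%), and the E-box CACGTG was at 1, the weak peak upstream of cbt at 481901 (2.62%). Printed over 300 bp, the cbt promoter sequence shows the E-box letters also, more than 100 bp from its summit and so outside the counted window.

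The 2 strong peaks upstream of cbt shared 2 words of 9 bases. ATGTCATTC was at 8 of 3205 thresholded summits (0.250%) and CTCTAAAAG at 5 (0.156%), both counts including these peaks. At the strongest peak ATGTCATTC began 24 bp after the summit on the plus strand, and at the cbt promoter it lay on the minus strand, beginning 79 bp before the summit. CTCTAAAAG began 60 bp after the strongest summit on the minus strand and 16 bp after that of the promoter on the plus strand. Both words thus changed strand between the peaks. No factor is assigned to either word here, and they were found by comparing these sequences after the values were known. How often other pairs of peaks share a word is not given, so the small percentages do not show that the sharing is unusual.

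Base composition at the centre was added after values were seen, for the strongest peak and the cbt promoter peak only. The strongest peak was low in G and C there. The 51 bp around its summit had 21.6% G and C, lower than at all but 4.27% of thresholded summits, whose median was 35.3%. Over 201 bp the share was 39.8%, near the median of the series (36.8%). The cbt promoter peak had 31.4% over 51 bp and 36.8% over 201 bp. Over the 15 peaks the share in 201 bp ran from 31.3% at 520858 to 51.7% at the ush-RA and ush-RC start, with a median of 39.3%.

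Genes outside the window with the most similar peaks were found by the Euclidean distance, on the log2 scale, between the signals of the 3 strongest thresholded peaks within 2 kb of any start site. For cbt, with 1703 and 455, the nearest was CG11050, with 1384 and 193, at a distance of 1.27. Mef2, the muscle transcription factor gene, followed with 860 and 193 (1.58), then CG31635 with 512 and 253 (1.93). For ush, whose 3 strongest such peaks had 154, 103 and 83.9, the distances were much shorter. RhoGAP92B had 163, 106 and 82.7 (0.09), and Hel89B and mor, a Brahma complex subunit gene, shared peaks of 147, 101 and 81.1 (0.09). The distances from cbt include the signal that chose the locus.

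Genes listed for the families, pathways or tissues of cbt or ush were searched for peaks near their start sites. The lists include relatives and markers, so they are not lists of known partners. Of 58 genes in 7 lists, 7 (12.1%) had a thresholded summit within 1 kb of a start site, against 19.4% of all protein-coding genes. Within 500 bp it was 3 of 58 (5.17%), against 16.9% of all protein-coding genes, and within 2 kb 13 of 58 (22.4%), against 23.6%, so the gap between the shares depended on the distance allowed. Of 7 listed genes of GATA factors and co-repressors, 1 (14.3%) had one within 1 kb, the co-repressor CtBP (chr3R:13012321-13012710, signal 131, rank 1162). The genes pnr and srp, which encode the GATA partners of ush named above, had best pooled ranks of 7836 and 10934. Among 4 genes needed, like ush, for germ band retraction, 1 (25%) had one, peb, the gene of the zinc finger factor Hindsight (chrX:4616838-4617227, signal 87.7, rank 2340). Of 13 blood cell regulators and markers, Stat92E alone (7.69%) had one, with 2 peaks of signal 150 (chr3R:20550573-20550962) and 119. None of 11 genes of the achaete-scute prepattern in the thorax had one.

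On the side of cbt, shares are again set beside the 19.4% of all protein-coding genes. Of 14 genes of JNK and Dpp signalling in dorsal closure, 3 (21.4%) had a summit within 1 kb. They were Mad, the Smad of the Dpp pathway (chr2L:3153363-3153504, signal 291, rank 213), msn, a kinase upstream of JNK (chr3L:2587242-2587631, signal 138, rank 1054), and Jra, the fly Jun (chr2R:10096674-10097063, signal 90.4, rank 2207). None of 7 listed genes of the KLF and Sp family had one, and the best pooled rank among those listed was 3875, at Spps. Of 5 Mondo-Mlx sugar-sensing genes, 1 (20%) had one, bigmax, the partner of Mondo (chr3R:27288487-27288876, signal 201, rank 518). Mondo itself and sug had best pooled ranks of 5132 and 4531. These lists are small, and their shares are set beside that of all genes only as a description.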

How the data were processed

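The deposited files are narrowPeak lists on dm6 and dm3, per the labels and file names, for each replicate, for the pooled replicates, and for the peaks past the authors' reproducibility threshold (optimal irreproducible discovery rate). The signal and the −log10 q-value per peak are as deposited by the authors; aligner, peak caller, threshold and read depth are not given in the sources used here. Peaks were ranked on the signal, since all thresholded dm6 peaks share a −log10 q-value of 3.81. The thresholded list is the 3205 highest rows of the pooled list, and the pooled and replicate lists hold 30000 rows each, background included.

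Coordinates are 1-based on dm6, and a summit is the interval's start plus the deposited offset. Genes come from Ensembl release 115 and sequence from the RefSeq copy of Release 6, the assembly of dm6. Of the dm3 lists only the highest signals were used. Python 3.11.15, numpy 2.4.6 and matplotlib 3.10.9 were used, and matching, motif search and counting were tested on simulated data. The genes named were cbt, ush, those meeting the window, the 3 most like each (a missing peak was set below the lowest thresholded signal) and list members with a peak. Other genes, the shared words, central base composition and peak density were added after values were seen. The members and lists were chosen with earlier results of these data known. No test was run, since measured values chose the locus and there is no second condition; the 2 replicates show only the spread between these libraries. Alternatives changed the flanks, the threshold, the matching distance, the sequence window and the replicate used.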

Additional observations from a re-analysis of the deposited data

How the results depend on the processing

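No paired analysis was possible because the series has 1 group. With flanks of 5 kb or 20 kb the window held 13 or 15 thresholded peaks. Among the 1602 highest peaks of the thresholded list it held 8, and all 8 were matched in both replicates. With the highest 3205 rows of 1 replicate in place of the thresholded list it held 13 without replicate 2 and 14 without replicate 3. The 14 include a row at 493522, rank 2893 in replicate 2, that matches none of the 15 peaks. The strongest window peak ranked from 1 to 2 and the cbt promoter peak from 64 to 107 when either replicate was left out. With summits within 50 bp, 13 of the 15 peaks were matched in both replicates, and with the highest 3205 rows of each replicate 11. Within 50 bp of the summit 4 of the 15 peaks had a panel sequence, where 10 had one within 100 bp; within 150 bp it was 12. GAGAG was at 3 of the 15 within 50 bp and at 9 within 150 bp, where 6 had it within 100 bp. AGATAA was at 1 and 4, where 3 had it within 100 bp. A shorter window holds fewer matches by construction. Of the 58 list genes, 3 had a summit within 500 bp of a start site, where 16.9% of all protein-coding genes had one, and 13 within 2 kb (23.6%); within 1 kb it was 7 (19.4%). Chosen after the data were seen, the rank of ush by number of peaks was 2 with the gene span alone and with 5 kb flanks, and 1, with ties in some settings, in the 4 other alternatives. Read depth, which limits which weak peaks could be seen, is not given in the sources used here.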
